A study of Mus musculus with 3 samples.

Results

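The genes described here are the 9 laminin and nidogen genes *Lama1*, *Lama2*, *Lama4*, *Lama5*, *Lamb1*, *Lamb2*, *Lamc1*, *Nid1* and *Nid2*, of 32285 genes counted, in single cells of the embryonic mouse kidney. They were chosen by name, as the chains and linkers of the kidney's basement membranes, and *Lama1* was further chosen by its measured level, as a gene with a large fall in progenitors of Enl-T1 embryos. The *Lama1* ratios between Enl-T1 and Enl-WT in progenitors are therefore given as a description. Kidneys were collected at E15.5 (embryonic day) and dissociated for droplet sequencing of the 3′ ends of transcripts, with 1 library for each of 3 groups. Enl-WT embryos carried 2 unmodified *Enl* alleles, Enl-T1 embryos carried the conditional *Enl* flox-T1 allele over a wild-type allele, and the Enl-T1 TDI-11055 embryos (called the treated library below) had the Enl-T1 genotype and mothers dosed daily from E10.5 to E14.5 with TDI-11055 at 100 mg/kg. Every group carried *Wt1* GFPCre/+, which drives Cre from the *Wt1* locus and inactivates 1 *Wt1* allele, so Enl-WT is not a kidney with the full *Wt1* dose. Cre from this locus acts in *Wt1*-expressing cells and their progeny, which include nephron and stroma, whereas the ureteric epithelium and endothelium are thought to lie outside it. ENL, the product of *Mllt1*, reads acylated chromatin, the T1 mutation is an insertion found in Wilms tumour, and TDI-11055 occupies the pocket with which ENL binds acylated histones.

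Laminins are trimers of an alpha, a beta and a gamma chain that assemble into a sheet at the base of epithelia and around vessels. Nidogens link that sheet to the type IV collagen network, and cells hold on to it through integrins, dystroglycan and the Lutheran glycoprotein. In kidney development, *Lama1* is known as the alpha chain of early nephron and ureteric basement membranes, *Lama5* as the alpha chain of maturing epithelia and of the glomerular filter, *Lama4* as a chain of vessels and mesenchyme, and *Lama2* as a chain of mesenchymal and mesangial matrix. *Lamb1* and *Lamc1* are shared by most trimers, and *Lamb2* takes the place of *Lamb1* in the mature glomerular basement membrane.

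The upstream stretches of *Lama5*, *Lamb1* and *Nid1*, which were all lower in the Enl-T1 nephron, are shown as examples of member promoters. They are the bases just before the annotated start of the gene, taken from the RefSeq promoter windows (GRCm38.p6, the assembly of mm10), 5′ to 3′ on the gene's strand. Capitals mark the GC box (GGGCGG or CCGCCC) and the CCAAT box (CCAAT or ATTGG), searched on both strands.
Lama5: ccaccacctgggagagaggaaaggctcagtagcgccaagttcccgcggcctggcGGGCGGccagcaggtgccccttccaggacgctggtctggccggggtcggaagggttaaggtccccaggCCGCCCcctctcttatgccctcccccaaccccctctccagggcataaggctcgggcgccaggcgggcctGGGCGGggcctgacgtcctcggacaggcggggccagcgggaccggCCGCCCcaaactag
Lamb1: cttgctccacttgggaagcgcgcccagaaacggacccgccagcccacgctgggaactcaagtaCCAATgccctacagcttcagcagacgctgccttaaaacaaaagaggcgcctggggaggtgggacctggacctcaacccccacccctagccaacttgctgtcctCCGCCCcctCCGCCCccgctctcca
Nid1: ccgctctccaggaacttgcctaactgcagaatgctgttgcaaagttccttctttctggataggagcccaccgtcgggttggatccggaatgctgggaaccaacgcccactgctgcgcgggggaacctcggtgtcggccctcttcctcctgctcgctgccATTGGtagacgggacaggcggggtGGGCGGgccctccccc
The *Lama5* stretch is chr2:180225860-180226109 on the minus strand and holds 4 GC boxes. The *Lamb1* stretch is chr12:31265043-31265233 on the plus strand, with 2 GC boxes that do not overlap and 1 CCAAT box. The *Nid1* stretch is chr13:13437352-13437550 on the plus strand, with 1 of each. A GC box was present in 35.7% of all 32851 windows of 300 bases and a CCAAT box in 37.4%, so either motif is common. The TATA box letters (TATAAA), present in 13.6% of windows, were in none of the 5 member windows on file, which also include *Lama2* and *Lamb2*. The windows of *Lama5*, *Lamb1* and *Nid1* held 24, 18 and 20 CpG dinucleotides against a median of 7 over all windows, and those of *Lamb2* and *Lama2* held 4 and 1. The *Lama2* window (chr10:27616893-27617192, minus strand) lies inside the annotated gene, whose first base on that strand is 27619758. It is therefore not the window of that annotated start. The *Lamb2* window, of a gene that was also lower in the Enl-T1 nephron, held neither a GC box nor a CCAAT box, and the *Lama2* window held 1 GC box, so the boxes are not shared by all members that were lower. The members lie on 8 chromosomes, with only *Lama2* and *Lama4* on the same one, and *Lama1* occupies chr17:67697259-67822647 on the plus strand (mm10).

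The Enl-WT, Enl-T1 and treated libraries held 37221435, 63336586 and 76619303 unique molecular identifiers (UMIs, each a counted transcript molecule), and 5233, 4144 and 2754 cells passed the study's limits on detected genes and mitochondrial share. The libraries also differed in depth and makeup, which cannot be told apart from the groups with 1 library each: median UMIs in a kept cell were 5090, 9391 and 16932, the median share of ribosomal protein transcripts was 15.46%, 25.3% and 26.2%, and the share of cells with a female transcript pattern was 26.5%, 73.3% and 35.1%. Kept barcodes shared by a pair of libraries numbered 5 to 8. Levels are given as CPM, the standard scaling of a gene's UMIs, summed over the cells of a class, to the summed UMIs of that class. As each group is 1 library of pooled embryos there is no test between groups and no p-value, and each 95% interval covers counting error only. Fewer transcripts in a class and another mix of cells within it cannot be told apart from the sums alone. Classes carry the suffix "-like" because they were rebuilt from marker genes. The podocyte-like and proximal tubule-like classes kept that name from Enl-WT cells: their summed markers were 40982, 954 and 10589 CPM for podocyte and 6328, 497 and 930 CPM for proximal tubule, in the same order, with 43 and 33 cells in Enl-T1, so in Enl-T1 the data go against these names. The progenitor names are also weaker in Enl-T1. NP1 markers (uninduced progenitors) summed to 1732, 688 and 1238 CPM in NP1-like cells and NP2 markers (induced progenitors) to 552, 735 and 533, so the Enl-T1 cells of that name held more of the NP2 than of the NP1 list. Of the 2 clusters called NP2-like, cluster 4 held NP2 markers at 3185, 3410 and 2591 CPM, but cluster 1 held them at 899.9, 889.6 and 717 against NP1 markers at 1185, 481 and 856, with 1 NP2 marker and the globin genes *Hbb-y* and *Hba-x* among its 10 leading genes. The markers of cluster 1 thus go against its name in Enl-WT and in the treated library, and it held 301 of the 350 NP2-like cells of Enl-T1. *Mllt1* was detected in NP1-like cells of all libraries (29.4, 22 and 19.3 CPM), which checks no allele because 3′ counts do not separate the alleles, and *Wt1* stood at 167, 109 and 65.8 CPM there.

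In Enl-WT the alpha chains divided the kidney among them. *Lama1* was highest in distal tubule-like cells (261 CPM, interval 245 to 278), then proximal tubule-like cells (186, 166 to 207), ureteric tip-like cells (104, 95.1 to 113) and the cells called NP2-like (91.8, 80.0 to 105), and the last pair did not differ beyond their intervals. The NP2-like value joins unlike clusters: cluster 4 stood at 142 (123 to 162), above ureteric tip-like cells. Cluster 1, whose markers go against that name, stood at 8.89. *Lama1* was lower in ureteric trunk-like cells (58.5, 52.3 to 65.2), and its level in podocyte-like cells (16, 10.1 to 22.7), the cells called NP1-like (11.6, 8.48 to 15.55), and endothelial-like cells (8.64, 5.59 to 12.8) formed a low group with overlapping intervals. *Lama5* had another order, with ureteric trunk-like cells (270, 257 to 284) above podocyte-like cells (210, 189 to 234), urothelium-like cells (154, 116 to 200) and ureteric tip-like cells (109, 99.8 to 118), whereas distal and proximal tubule-like cells were near 35 (35.4 and 34.8). *Lama1* and *Lama5* thus shared the ureteric epithelium in Enl-WT, with *Lama1* higher in its tip than in its trunk and *Lama5* higher in its trunk than in its tip. *Lama4* was highest in endothelial-like cells (168, 153 to 184), followed by renin and mesangial-like (125, 104 to 150) and *Foxd1* cortical stroma-like cells (123, 110 to 139), the last pair with overlapping intervals. *Lama2* was a stromal gene, at 83.5 (59.6 to 114) in medullary stroma-like and 35.9 (28.6 to 44.6) in *Foxd1* cortical stroma-like cells, and it was at 0.357 over the ureteric epithelium.

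*Lamb1* and *Lamc1*, the widely shared beta and gamma chains, were present in every class. In Enl-WT *Lamb1* ranged from 61.7 (54.1 to 70.1) in NP1-like to 579 (555 to 604) in distal tubule-like cells. *Lamc1* ranged from 83.5 (59.6 to 114) in medullary stroma-like to 325 (310 to 340) in ureteric trunk-like cells, close to distal tubule-like (324) and podocyte-like cells (300.5, 275 to 328). *Lamb2* was highest in podocyte-like cells (68.6, 56.6 to 82.3), above ureteric stroma-like (44.4, 19.2 to 87.4), endothelial (41.8, 34.7 to 49.96) and *Foxd1* cortical stroma-like cells (41.1, 33.3 to 50.3), whose intervals overlapped. The nidogens were made outside the tubules: *Nid1* stood at 407 (367 to 450) in renin and mesangial-like, 328 (278 to 383) in medullary stroma-like and 179 (164 to 195) in endothelial-like cells, against 3.70 (2.02 to 6.21) in distal tubule-like cells. *Nid2* stood at 205 (166 to 249) in medullary stroma-like and 111 (98.8 to 123) in endothelial-like cells, and at 2.77 (1.88 to 3.93) over the ureteric epithelium.

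**Figure D1:**
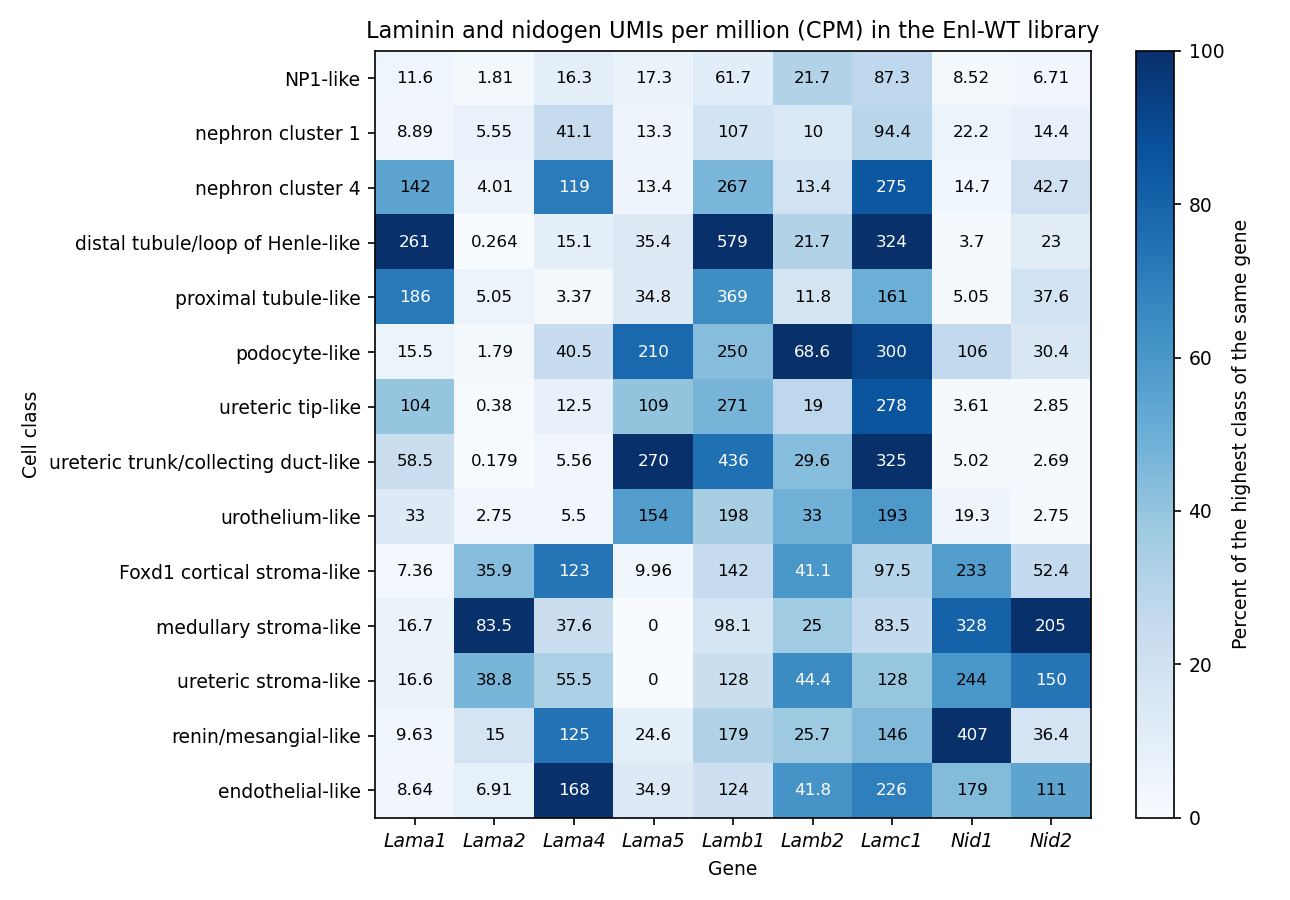
Levels of the 9 members in Enl-WT cell classes, each as a percent of that gene's highest class, with the CPM printed in each cell of the grid. *Lama1* peaks in distal tubule-like cells (261 CPM), *Lama5* in ureteric trunk-like cells (270 CPM), *Lama4* in endothelial-like cells (168 CPM) and *Nid1* in renin and mesangial-like cells (407 CPM).

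In Enl-T1 the *Lama1* transcript was several times lower in the cells called distal tubule-like and in the ureteric epithelium. It was not in the classes called proximal tubule-like and podocyte-like, but their Enl-T1 cells are unlike those of Enl-WT. They held NP2 markers at 2260 and 1739 summed CPM, against 497 and 954 for the markers of their names. In the podocyte-like class 5 of 43 Enl-T1 cells held a *Lama1* UMI. In distal tubule-like cells *Lama1* stood at 261 CPM in Enl-WT, 49.9 (38.6 to 63.5) in Enl-T1 and 63.8 (55.5 to 73.1) in the treated library. The Enl-T1 to Enl-WT ratio there was 0.191 (0.147 to 0.245). This class joins nephron cluster 3, led by *Sim1* and *Cxcl14*, with nephron cluster 6, led by *Slc12a1* and *Sostdc1*. These held 335 and 260 cells in Enl-WT, 57 and 51 in Enl-T1 and 159 and 80 in the treated library. Markers were not summed within this class, so its cells may also be unlike between libraries, and the part of this in the ratio was not tested. In proximal tubule-like cells the levels were 186, 161 (124 to 205) and 99.4 (79.4 to 123) CPM. There the ratio of Enl-T1 to Enl-WT was 0.864 (0.652 to 1.13), with only 33 Enl-T1 cells and the low marker level given above. The thinned share of cells with a *Lama1* UMI, each cell cut to 2000 UMIs to set depths equal, was 39.6%, 11.2% and 9.40% of distal tubule-like cells, and 30.5%, 37.5% and 20.5% of proximal tubule-like cells.

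*Lama1* was also lower in Enl-T1 in the ureteric epithelium, which Cre is not expected to reach. In ureteric tip-like cells the libraries gave 104, 41.9 (36.2 to 48.2) and 36.8 (33.2 to 40.8) CPM, and in ureteric trunk-like cells 58.5, 19.2 (16.4 to 22.3) and 27.4 (24.0 to 31.1) CPM. The Enl-T1 to Enl-WT ratios were 0.404 (0.341 to 0.477) and 0.328 (0.271 to 0.395), so both Enl-T1 values lay far below the Enl-WT intervals. The trunk-like class joins cluster 2, led by *Cldn3* and *Wnt9b*, with cluster 6, led by *Sprr2f* and *Fxyd4* and including collecting duct, and these held 540 and 338 cells in Enl-WT, 317 and 408 in Enl-T1 and 354 and 162 in the treated library. In cluster 2 alone *Lama1* stood at 92.1, 37.2 and 34.0 CPM and in cluster 6 at 22.3, 7.04 and 13.3 CPM, Enl-T1 to Enl-WT ratios of 0.404 (0.326 to 0.499) and 0.315 (0.204 to 0.481). Over the whole lineage the level was 78.9, 23.8 and 32.1 CPM, a ratio of 0.302 (0.267 to 0.342), and only 0.373% of the 10458 genes tested there had a lower ratio. The makeup of the lineage differed as well. Tip-like cells numbered 813 of 1744 in Enl-WT, 333 of 1174 in Enl-T1 and 490 of 1021 in the treated library. The ureteric tip markers summed over the lineage were 493, 255 and 610 CPM, and the part of this in the lineage ratio and its rank was not tested. Urothelium-like cells gave 12 and 3 UMIs in 53 and 116 cells, a ratio of 0.049 (0.0089 to 0.182), while the urothelium markers summed over the lineage were 110, 520 and 46.3 CPM in the 3 libraries. Endothelial-like cells, a class not known for *Lama1* and used here as the background, gave 25, 1 and 3 *Lama1* UMIs in 15, 1 and 3 cells, or 8.64, 0.313 and 1.68 CPM, so this background was also lower in Enl-T1. Doublets were kept, and whether these UMIs come from free RNA was not tested.

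**Figure D2:**
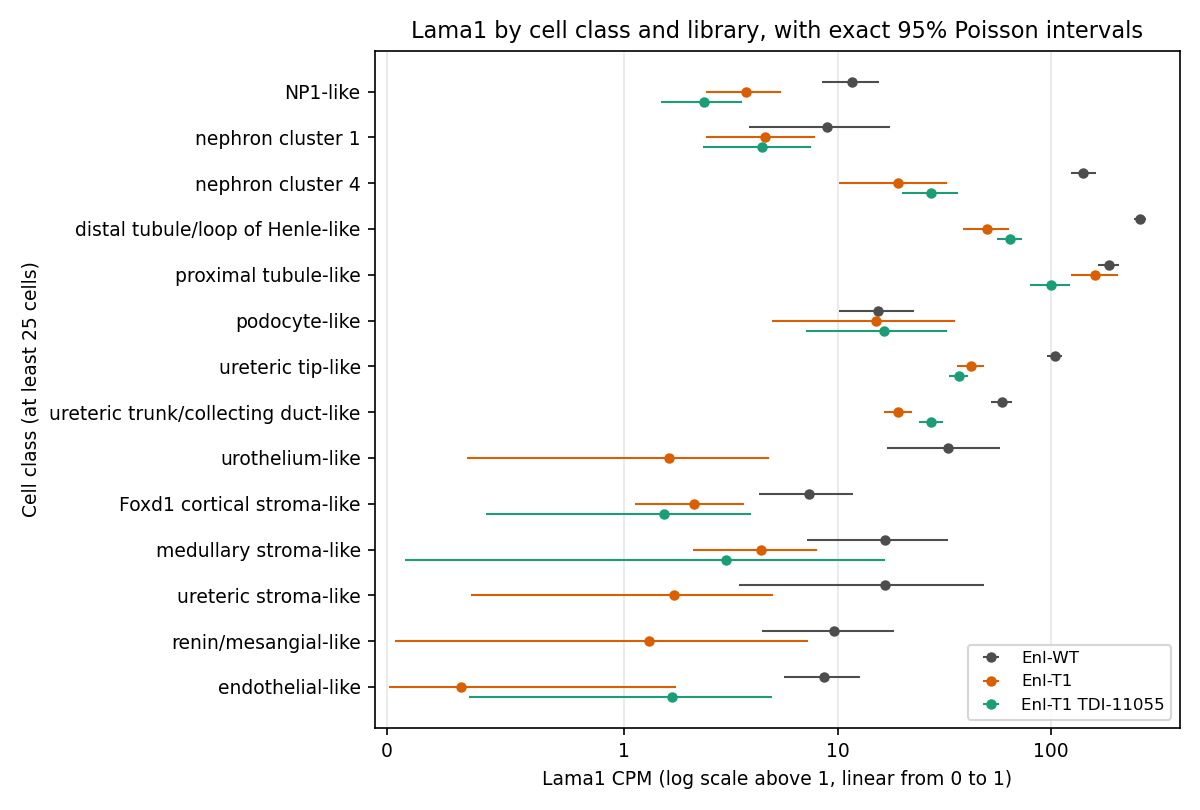
*Lama1* CPM by cell class in the 3 libraries on a log axis, with exact 95% Poisson intervals that cover counting error. Distal tubule-like and ureteric cells of both Enl-T1 libraries lie below Enl-WT, and proximal tubule-like (186, 161 and 99.4 CPM) and podocyte-like cells (16, 15.1 and 16.4 CPM) lie closest together. In the proximal tubule-like and podocyte-like classes the Enl-T1 cells held far lower summed markers of their name, so unlike cells are compared.

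Among the progenitors of Enl-WT, most of the *Lama1* came from 1 of 5 clusters. That cluster (NP2-like cluster 4) gave 212 of 265 UMIs in Enl-WT, 13 of 52 in Enl-T1 and 45 of 80 in the treated library. NP1-like cells gave 45, 26 and 22 UMIs, or 11.6, 3.70 (2.42 to 5.42) and 2.36 (1.48 to 3.57) CPM, and the Enl-T1 to Enl-WT ratio that goes with the choice of *Lama1* was 0.318 (0.188 to 0.527), a log2 ratio of -1.65. Under a stricter limit on cells that log2 ratio was -0.85 with an interval from -2.38 to 0.84. After thinning, 1.51% (0.727% to 2.76%), 0.188% and 0.188% of NP1-like cells held a *Lama1* UMI, against 2.08%, 0.389% and 0.862% of endothelial-like cells, at median depths of 5211, 12521 and 19240 UMIs for NP1-like and 5663, 10456 and 14336 for endothelial-like cells. Without thinning the shares were 6.0%, 4.51% and 3.94% of NP1-like and 3.8%, 0.389% and 2.59% of endothelial-like cells. With cells cut to 4000 UMIs in place of 2000, the shares were 4.98%, 1.51% and 1.61% of NP1-like cells against 2.83% and 0.417% of endothelial-like cells in Enl-WT and Enl-T1, and 0 of 100 in the treated library (exact 95% upper bound 3.62%). The NP1-like share thus lay below the background at 2000 UMIs and above it at 4000, with overlapping intervals in each library at both depths. Without thinning the intervals overlapped in Enl-WT and the treated library, but not in Enl-T1 (2.91% to 6.64% against 0.00985% to 2.15%). At equal depth the NP1-like share could thus not be told from background, and it is not read as expression. NP2-like cells gave 91.8, 7.35 (4.80 to 10.8) and 12.6 (9.59 to 16.3) CPM and a ratio of 0.080 (0.051 to 0.121). Within them, cluster 4, led by *Osr2*, *Lhx1* and *Npy*, stood at 142 (123 to 162), 19.1 (10.2 to 32.6) and 27.4 (20.01 to 36.7) CPM, whereas the other one (NP2-like cluster 1) gave 8.89, 4.55 and 4.40 CPM, close to NP1-like cells. In cluster 4 the thinned share of cells with a *Lama1* UMI was 24.0% (18.2% to 30.6%), 2.04% and 2.69%, well over the endothelial share in Enl-WT.

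That cluster was also scarcer in Enl-T1, at 18.7%, 5.56% and 20.3% of NP1-like and NP2-like cells in the Enl-WT, Enl-T1 and treated libraries. Over both progenitor classes together the *Lama1* ratio of Enl-T1 to Enl-WT was 0.116, and with the Enl-T1 clusters weighted as in Enl-WT it was 0.171, a weighting added after the data were seen. The level within cluster 4 alone was lower as well (ratio 0.135, 0.071 to 0.235). In the treated library the cluster's share was near that of Enl-WT while its *Lama1* level was not: the treated to Enl-T1 ratio over both classes was 1.17 as measured and 0.916 at the Enl-T1 mix. The markers of the next nephron stage were lower in cluster 4 of Enl-T1 (629 against 1129 summed CPM for the renal vesicle and S-shaped body list, and 20.5 against 313 for the proximal tubule list) while its NP2 markers were not (3410 against 3185), and the part of this in the *Lama1* difference was not tested.

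**Figure D3:**
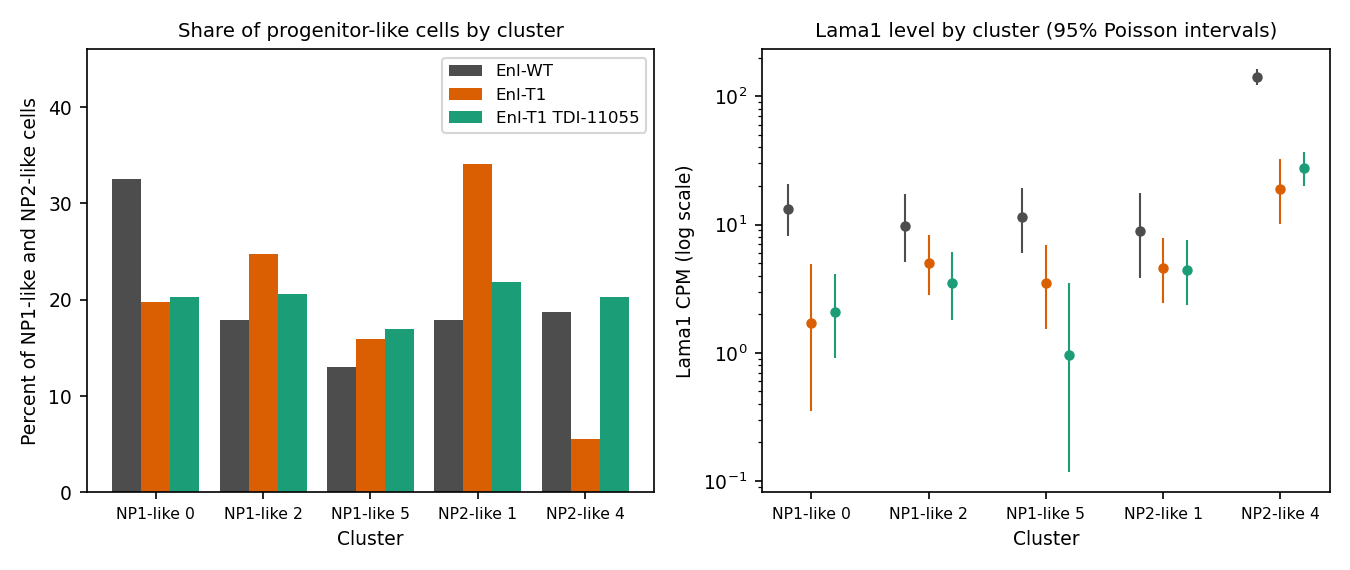
Left, the share of NP1-like and NP2-like cells in each progenitor cluster by library. Right, *Lama1* CPM in each cluster with 95% intervals that cover counting error, where NP2-like cluster 4 stands at 142, 19.1 and 27.4 CPM and the other clusters at 13.3 or less.

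*Lama1* was not the gene with the lowest ratio by these classes. Ranked from the lowest Enl-T1 to Enl-WT ratio it was number 145 of 9849 genes in NP1-like cells, 32 of 9890 in NP2-like cells and 10 of 9901 over both. The 5 lowest in NP1-like cells were *Hba-x*, *Gm15013*, *Hbb-y*, *CJ186046Rik* and *Clrn1*, with log2 ratios of -8.06 to -3.57. *Hba-x* and *Hbb-y* encode embryonic globins of red blood cells, not kidney genes. Just beside *Lama1* in that order were *Kank2* and *Arhgap26* (both -1.66) and *Spg11* (-1.65).

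*Lama5*, the alpha chain of mature epithelia and the glomerular filter, was lower in Enl-T1 in most classes where it was made. In podocyte-like cells 353, 10 and 15 UMIs gave 210, 30.3 (14.53 to 55.7) and 30.8 (17.2 to 50.8) CPM, a ratio of 0.144 (0.068 to 0.268) beside the loss of podocyte markers already given. In ureteric trunk-like cells it stood at 270, 130 (122 to 137) and 105 (98.5 to 112) CPM, and in ureteric tip-like cells at 109, 64.0 (56.9 to 71.7) and 38.2 (34.5 to 42.3) CPM, so each library lay below the one before it. In distal tubule-like cells the values were 35.4, 23.4 and 19.9 CPM, a ratio of 0.662 (0.433 to 0.984).

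*Lama4*, the alpha chain of vessels and mesenchyme, stood at 123, 42.5 (37.5 to 48.0) and 47.7 (39.7 to 56.9) CPM in *Foxd1* cortical stroma-like cells, a ratio of 0.344 (0.290 to 0.409). In endothelial-like cells it stood at 168, 121 (109 to 133) and 82.2 (69.4 to 96.6) CPM, a ratio of 0.719 (0.627 to 0.823) that did not pass 1.5-fold. In NP1-like cells the ratio was 0.839 (0.605 to 1.17), and in NP2-like cluster 4, of which *Lama4* is a leading gene, it was 0.814 (0.604 to 1.09). *Lama4* thus differed in cortical stroma and was within its interval of no difference in cluster 4, where the *Lama1* ratio was 0.135.

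*Lama2* was the exception among the alpha chains over the stroma as a whole, but not in medullary stroma-like cells. Over the stroma it stood at 37.6 (31.9 to 44.0), 34.5 (31.2 to 38.2) and 23.0 (18.2 to 28.6) CPM, a ratio of Enl-T1 to Enl-WT of 0.918 (0.759 to 1.11). In medullary stroma-like cells it was 83.5, 53.1 (44.1 to 63.4) and 65.6 (41.1 to 99.3) CPM, so lower in Enl-T1 by more than 1.5-fold. These cells numbered 137 of 871 stromal cells in Enl-WT, 352 of 1394 in Enl-T1 and 28 of 271 in the treated library. The part of this makeup in the stromal ratio was not tested. In renin and mesangial-like cells, which numbered 181, 95 and 23, *Lama2* was higher in Enl-T1, at 15.0, 32.7 and 15.4 CPM (ratio 2.18, 1.09 to 4.54). The Enl-T1 cells of the podocyte-like class gave 25 UMIs, in 12 of 43 cells with at most 6 in a cell, or 75.7 (49.0 to 112) CPM against 1.79 in Enl-WT and 2.05 in the treated library. Those cells lack most podocyte transcripts, as stated above, so the ratio compares unlike cells.

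*Lamb1* and *Lamc1* were lower in Enl-T1 in every lineage. In distal tubule-like cells *Lamb1* stood at 579, 120 (102 to 140) and 151 (138 to 165) CPM, a ratio of 0.208 (0.176 to 0.244) that was close to that of *Lama1* there. In ureteric trunk-like cells *Lamb1* gave 436, 154 and 174 CPM and *Lamc1* 325, 120 and 146 CPM, ratios of 0.354 (0.331 to 0.378) and 0.368 (0.341 to 0.397). In endothelial-like cells the ratios were nearer to 1, at 0.653 (0.554 to 0.768) for *Lamb1* and 0.506 (0.444 to 0.576) for *Lamc1*. *Lamc1* was within its interval of no difference in proximal tubule-like cells (161, 151 and 102 CPM, ratio 0.936, 0.698 to 1.24), as *Lama1* was. The Enl-T1 cells of that class held few proximal tubule markers, as stated above. *Lamb2*, the glomerular beta chain, stood at 68.6, 18.2 (6.67 to 39.6) and 24.6 (12.7 to 43.0) CPM in podocyte-like cells. In stroma and ureteric epithelium its ratios were 0.682 (0.555 to 0.840) and 0.687 (0.578 to 0.816), which did not pass 1.5-fold.

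The nidogens were lower in stroma and endothelium of Enl-T1. *Nid1* stood at 233, 123 (114 to 132) and 79.8 (69.3 to 91.4) CPM in *Foxd1* cortical stroma-like cells and at 407, 200.02 (170 to 234) and 225 (181 to 278) CPM in renin and mesangial-like cells. *Nid2* stood at 205, 62.7 (52.9 to 73.8) and 113 (80.1 to 155) CPM in medullary stroma-like cells, an Enl-T1 to Enl-WT ratio of 0.307 (0.236 to 0.400), and in ureteric stroma-like cells the ratio was 0.190 (0.117 to 0.316). In podocyte-like cells *Nid1* was at 106, 127 (91.7 to 172) and 61.6 CPM and *Nid2* at 30.4, 42.4 and 32.8 CPM, so neither was lower in Enl-T1 there. Those Enl-T1 cells lack most podocyte transcripts, as stated above.

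Counted over lineages, 8 of 8 members tested were lower by at least 1.5-fold in the Enl-T1 nephron, 7 of 9 in stroma, 4 of 5 in ureteric epithelium, 6 of 7 in endothelium and 5 of 6 in NP1-like cells (8 of 8 over NP1-like and NP2-like cells together), where tested means a mean of at least 5 CPM over the libraries. The makeup of the nephron moved with its count: distal tubule-like cells numbered 595 of 2214 in Enl-WT, 108 of 1301 in Enl-T1 and 239 of 1341 in the treated library, proximal tubule-like cells 278, 33 and 73, and podocyte-like cells 223, 43 and 31. Over the lineage the summed markers of these classes were 602, 107 and 188 CPM (distal), 938, 29.3 and 72.1 (proximal) and 5405, 351 and 737 (podocyte), and the part of this in the nephron count and median was not tested. The stroma differed too: renin and mesangial-like cells numbered 181 of 871, 95 of 1394 and 23 of 271, and ureteric stroma-like cells 45, 240 and 10. Renin and mesangial markers summed to 1658, 371 and 448 CPM over the stroma. The part of this in the stromal values, and of the ureteric makeup given above in the ureteric values, was not tested. Many other genes were also lower by at least 1.5-fold: 38.2% of all genes tested in the nephron, 29.3% in stroma, 26.9% in ureteric epithelium, 29% in endothelium, 31.3% in NP1-like cells and 33.3% over both progenitor classes. The median log2 ratio of the members was -1.81, -1.48, -1.36, -0.94 and -1.05 in nephron, stroma, ureteric epithelium, endothelium and NP1-like cells. The median of all genes tested was itself -0.41, -0.30, -0.30, -0.31 and -0.32, so relative to it the members stood at -1.41, -1.18, -1.06, -0.63 and -0.73. Under median-of-ratios scaling, which sets the typical gene to no difference, the all-gene split of lower and higher calls moved from 38.2% and 5.64% to 17% and 14.9% in the nephron and from 26.9% and 5.68% to 9.90% and 12.9% in the ureteric epithelium.

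**Figure D4:**
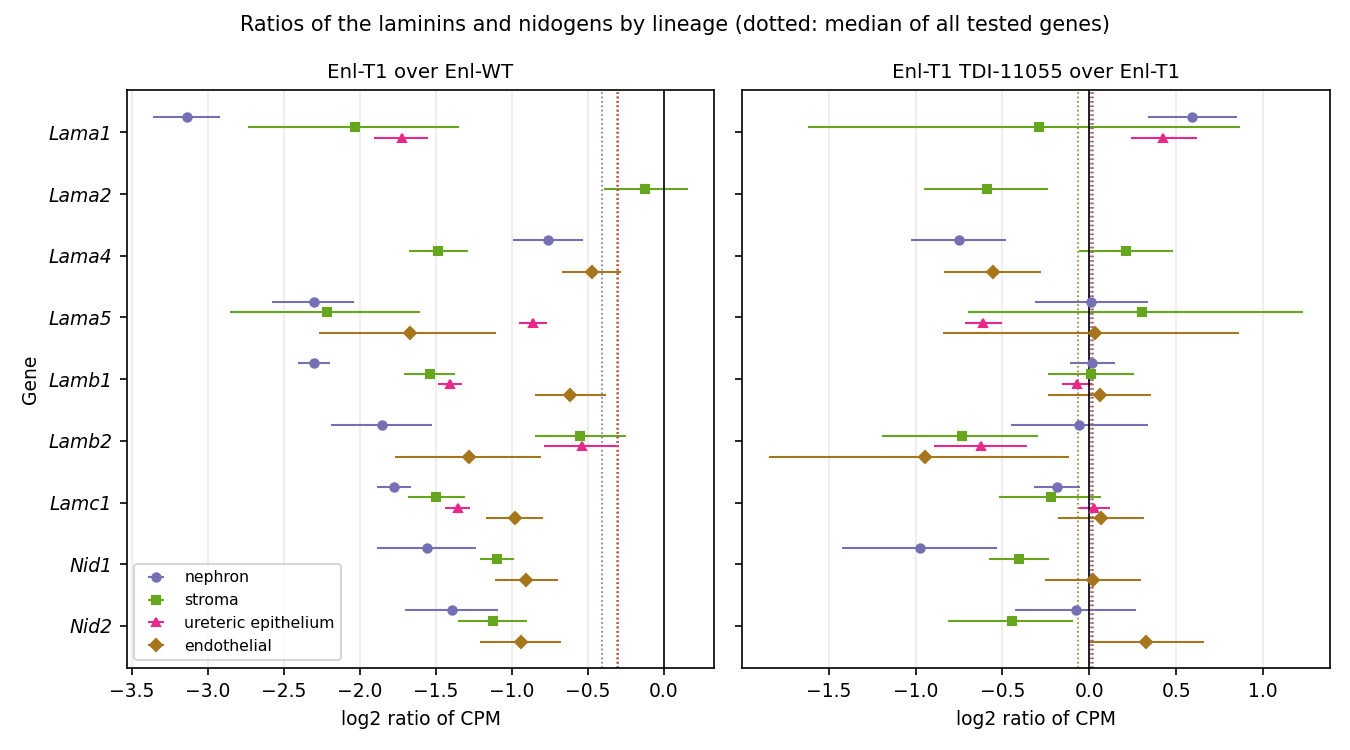
Log2 ratio of each member in 4 lineages with 95% intervals that cover counting error, for the mutant against Enl-WT and for the treated against the untreated mutant, with the median of all genes tested as a line. In the nephron *Lama1* is at -3.13 and in the ureteric epithelium at -1.73, and most ratios of the treated to the untreated mutant library lie near 0.

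The length of the transcript moved with the ratio across genes, and the 9 members are long, with exonic lengths of 5174 (*Nid2*) to 16338 (*Lama2*) bases. Genes tested in that range of length had a median log2 ratio of -0.62 in the nephron, -0.50 in stroma, -0.51 in ureteric epithelium, -0.47 in endothelium and -0.53 in NP1-like cells. With genes split by length into 5 bins of equal size, the nephron median from the shortest to the longest bin ran from -0.02 to -0.73, and the share of ribosomal protein transcripts in the nephron, which are short, was 15.6%, 29.1% and 27.9% in the 3 libraries. The members' medians lay below those of genes of like length in each lineage. The part of transcript length in the members' ratios was not tested.

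**Figure D5:**
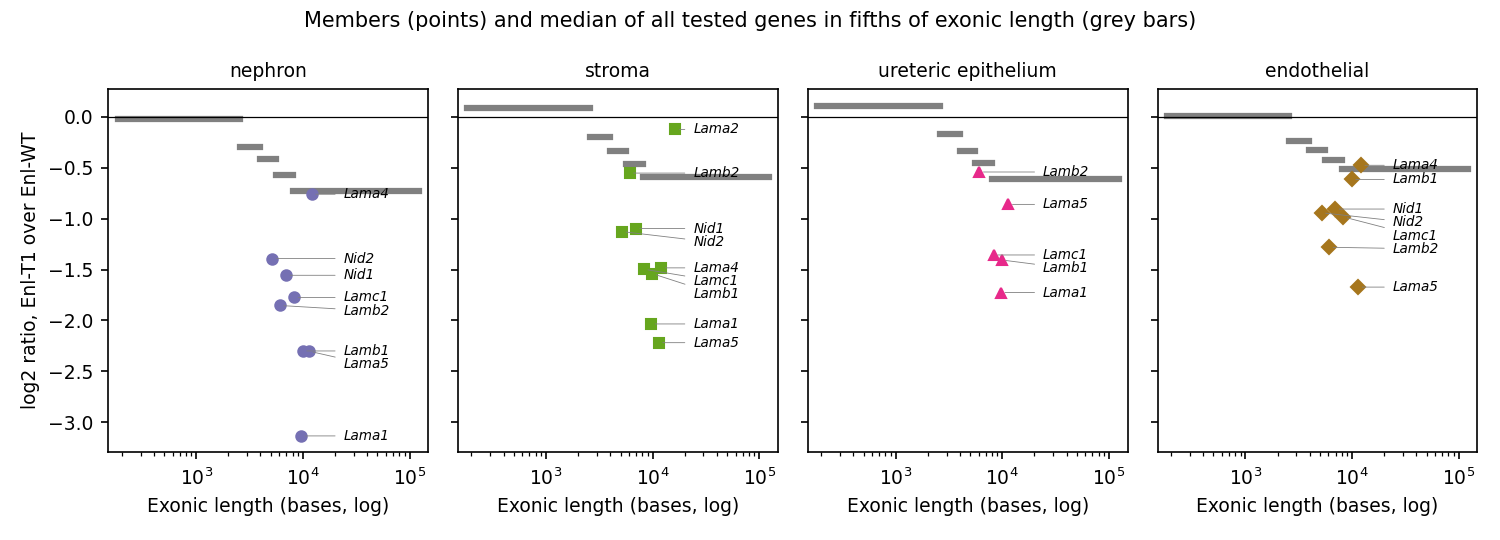
Log2 ratio of Enl-T1 over Enl-WT against exonic length on a log axis, with the median of all genes tested in each of 5 length bins as horizontal bars and the members as points, for the nephron, stroma, ureteric epithelium and endothelium. In the nephron and the ureteric epithelium the medians run down to -0.73 and -0.61 in the longest bin, and *Lama1* lies at -3.13 and -1.73.

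The treated library lay close to untreated Enl-T1 for most members. Both ratios share the Enl-T1 library, so they are not independent, and they are given side by side. From the untreated to the treated mutant library the members' median log2 ratio was -0.07 in the nephron, -0.29 in stroma, -0.07 in ureteric epithelium, 0.03 in endothelium and -0.53 in NP1-like cells, against all-gene medians within 0.07 of 0. Members lower by at least 1.5-fold numbered 2 of 8, 2 of 9, 2 of 5, 1 of 7 and 2 of 6, and 7.35%, 12.6%, 9.73%, 18.7% and 8.78% of all genes tested were that low. *Lama1* was higher in the treated than in the untreated mutant library in the nephron (20.2 against 13.4 CPM, ratio 1.51, 1.26 to 1.80) and in the ureteric trunk-like cells (1.43, 1.17 to 1.75), and both mutant libraries stayed far below the 118 CPM of the Enl-WT nephron. The classes rich in *Lama1* were more frequent in the treated than in the untreated nephron, at 239 against 108 distal tubule-like, 73 against 33 proximal tubule-like and 187 against 49 cluster 4 cells. Within them the treated to untreated ratio was 1.28 (0.965 to 1.71), 0.619 (0.443 to 0.869) and 1.44 (0.763 to 2.91). In the trunk-like class it was 0.915 (0.732 to 1.15) in cluster 2 and 1.89 (1.17 to 3.06) in cluster 6, so the higher value was found in 1 of its 2 clusters.

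*Lama5* and *Lamb2* were lower still in the treated ureteric epithelium, at 68.8 and 11.0 CPM against 105 and 16.99 in Enl-T1 (ratios 0.655, 0.609 to 0.705, and 0.648, 0.538 to 0.781). *Lama4* was lower in treated nephron cells (10.6 against 17.8 CPM, ratio 0.594, 0.491 to 0.717) and in NP2-like cluster 4 (27.4 against 96.8 CPM, ratio 0.283, 0.190 to 0.420). *Nid2* was higher in treated medullary stroma-like cells (ratio 1.81, 1.23 to 2.60), with 28 cells in the treated library, and lower in *Foxd1* cortical stroma-like cells (0.519, 0.340 to 0.770). Within NP1-like cells the *Lama1* ratio of treated to untreated was 0.638 (0.345 to 1.17), and in female cells alone its log2 value was 0.0063, so no direction is read from it.

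The other parts of the basement membrane were tallied from fixed lists. Of the other basement membrane components (type IV collagen chains, perlecan, agrin, the Fraser complex and others), 14 of 15 tested were lower by at least 1.5-fold in the Enl-T1 nephron, 12 of 17 in stroma, 10 of 13 in ureteric epithelium and 5 of 14 in endothelium. Of all genes tested, 38.2%, 29.3%, 26.9% and 29% were that low in the same order, so the endothelial count lay near that share. The median log2 ratios of these components were -1.67, -0.86, -0.95 and -0.33, the last equal to the all-gene level within 0.02. *Col4a1* and *Col4a2*, the main type IV collagen chains, had log2 ratios of -1.86 and -1.67 in the nephron, -1.004 and -1.24 in the ureteric epithelium, and -0.10 and -0.11 in endothelium, where *Lamc1* was at -0.98. *Frem2*, a Fraser complex protein of epithelial basement membranes, was at -1.52 in the ureteric epithelium, and *Col15a1* was higher in stroma (0.96). *Sparc*, a collagen-binding protein, was at -0.02 in the ureteric epithelium and 0.06 in stroma. Of the laminin receptors, 5 of 5 tested were lower by at least 1.5-fold in the nephron, 2 of 4 in stroma, 2 of 6 in ureteric epithelium and 1 of 5 in endothelium. Beside the all-gene shares of 38.2%, 29.3%, 26.9% and 29%, the receptor counts in ureteric epithelium and endothelium are read as no difference from other genes. The integrin subunit *Itga6* was at -2.20 in the nephron, -2.60 in stroma and -0.98 in ureteric epithelium, and its partner *Itgb1* at -0.95, -0.42 and -0.44. Among other laminin chains, the epithelial *Lamb3* was higher in the Enl-T1 ureteric epithelium (1.06) while the summed urothelium markers were higher there too, as given above, and their part in it was not tested.

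The pattern of each member over classes and libraries was set beside that of 10781 other genes, by Pearson's r of log2(CPM + 5) over 36 points of class by library, which share libraries, depth and cells. Among the genes most like *Lama1* were *Fhod3* (0.93), *Dcdc2a*, *Me3* and *Sema4d* (the last 3 each 0.87). Those most like *Lama5* were *Mfsd6*, *Nr6a1*, *Neat1*, *Ptprj* and *Pard6b* (0.90 to 0.91), those most like *Lama4* were *Sept11*, *Nr2f1*, *Jcad*, *Pmp22* and *Plekho1* (0.79 to 0.81), and those most like *Lamb2* were *Stat3*, *Ski*, *Herc2*, *Psd3* and *Hipk3* (0.86 to 0.89). Between members, *Lamb1* and *Lamc1* were most alike (0.93), followed by *Lama2* and *Nid1* (0.84), and *Lama1* was nearest to *Lamb1* (0.77).

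Cells with a female and with a male transcript pattern were also compared apart, since the libraries differed in their shares. In the nephron the *Lama1* ratio of Enl-T1 to Enl-WT was 0.134 (0.111 to 0.160) in female and 0.054 (0.030 to 0.090) in male cells, and in the ureteric epithelium it was 0.273 (0.229 to 0.325) and 0.384 (0.299 to 0.488). The lower level was thus present in cells of either sex in both lineages.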

How the data were processed

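Droplet libraries of E15.5 kidneys (10x Genomics, 3′ ends) were made by the authors, 1 for each group, from pooled embryos with no map from cells to embryos. The deposited matrices held raw UMI counts of each gene in each called cell, made by the authors with Cell Ranger 6.1.2 on mm10, per the submitters' processing notes. The members and gene lists were chosen with earlier results of these data known.

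Cells with 1000 to 6000 genes and at most 10% mitochondrial UMIs were kept, as the study's methods set out. No doublets were removed, and a Scrublet run (scanpy 1.11.5) that took out 125, 45 and 61 cells (of the Enl-WT, Enl-T1 and treated libraries) was an alternative (in the last, by rank of score, since the automatic cut marked 3). Libraries were integrated in Seurat 5.3.0 (R 4.3.3) on 2000 variable genes, without 79 outcome genes (the members among them) and 124 mitochondrial, ribosomal, haemoglobin and sex-linked genes. Clustering used 30 principal components at a resolution of 0.5 for the whole kidney, then 20 at 0.8 for nephron and for stroma. Clusters were named from marker lists and needed 3 detected markers. NP1-like cells comprise 3 clusters, of which 2 are led by cell cycle genes.

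For each library the counts of a class were added up and divided by their total (CPM). Exact 95% Poisson intervals were given for CPM, Clopper-Pearson intervals for shares, and intervals from the binomial split of both counts for ratios, and all cover counting error only. Genes with a mean of at least 5 CPM over the 3 libraries entered the counts, and called means past 1.5-fold. Classes needed 25 cells in both libraries of a ratio. The code was tested on simulated counts. Exonic lengths came from GENCODE M21. Genes named are the members, the listed genes, the 5 with the lowest ratio, the neighbours of *Lama1* in that order and the 5 most alike in pattern, of which some are not reported here. The larger falls than that of *Lama1* were too many to name and are given by its rank. Alternatives were another scaling, totals without ribosomal, mitochondrial and haemoglobin genes, no filter on low values, stricter cells (at least 2000 genes and at most 5% mitochondrial), no upper limit, Scrublet, other clustering genes, a *Six2* gate, thinning, cells of 1 sex, and single clusters. Sequences were from RefSeq, with a window on file for 5 of 9 members.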

Additional observations from a re-analysis of the deposited data

Results flagged for a closer look

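No p-value can be given for the following differences, which are noted because the intervals of the same ratio lay on opposite sides of 1 in different classes. The difference between classes was not tested in any of them. *Lama2* had an Enl-T1 to Enl-WT ratio over 1 in podocyte-like (ratio 42.3), proximal tubule-like (3.42) and renin and mesangial-like cells (2.18), and below it in medullary stroma-like cells (0.636). The first of these classes holds 43 Enl-T1 cells and the second 33, both with far lower summed markers of their name than in Enl-WT. *Lama1* was higher in the treated than in the untreated mutant library over the nephron (1.51) and in NP2-like cells (1.72), and lower in proximal tubule-like cells (0.619). In the 2 clusters that make up the NP2-like class the ratios were 0.967 and 1.44, both with intervals that span 1. *Nid2* was higher in the treated than in the untreated mutant library in medullary stroma-like cells (1.81), of which the treated library holds 28, and lower in *Foxd1* cortical stroma-like cells (0.519).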

How the results depend on the processing

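Each group is 1 library, so depth and the libraries' own differences limit every ratio, and no alternative here tests them. No paired analysis was possible because there is 1 library a group. In NP1-like cells, *Lama1* rests on 22 to 45 UMIs. Its log2 ratio of Enl-T1 over Enl-WT, -1.65, was -0.85 with stricter cells, -2.47 with the *Six2* gate, -3.00 after thinning to 2000 UMIs and -2.97 in NP1-like cluster 0 alone, and it was below 0 in every alternative run. Its ratio of the treated to the untreated mutant library, -0.65, was reversed in female cells (0.0063) and in cluster 0 alone (0.30) and was -1.87 in cluster 5 alone. The treated over Enl-WT value, -2.30, was -1.49 in cluster 2 and -3.55 in cluster 5. The members' median of Enl-T1 over Enl-WT, -1.05, was -1.50 with the *Six2* gate and ranged from -1.50 to -0.73. Members lower by at least 1.5-fold numbered 5 of 6 in the reported setting, beside 31.3% of all genes tested. They numbered from 4 to 8 over the alternatives, with 8 under the *Six2* gate. The members tested can differ between alternatives, and no all-gene share was taken under the gate. The members' treated over untreated median, -0.53, was -0.049 after thinning. The difference in the share of NP1-like cells with a *Lama1* UMI, -1.32 percentage points, was -2.85 with the *Six2* gate and -3.47 at 4000 UMIs. Over all classes and pairs, 235 member ratios lay past 1.5-fold lower, 206 under median-of-ratios scaling and 221 without ribosomal, mitochondrial and haemoglobin genes. The alternatives ran from 149 to 235, each counted over the ratios it had in common with the reported setting. These counts pool classes with the lineages that hold them and pairs that share a library. No all-gene share was taken over the same set, so they describe the processing only. For other single values, 488 stayed within the interval of the reported value and 142 moved outside it. None was called reversed, a label given only where the reported value was itself past 1.5-fold, so smaller ratios may have changed sign. The causes were not tested.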

Other observations

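*Lama1* lies on the same chromosome as *Mllt1*, the gene that carries the T1 allele, at a distance of 10.8 Mb. Within 1 Mb of *Lama1*, 2 other genes passed the filter on low values. *Arhgap28* was at 65.8, 18.3 and 12.4 CPM in the nephron of the Enl-WT, Enl-T1 and treated libraries, a log2 ratio of Enl-T1 over Enl-WT of -1.85, and at 22.1, 12.7 and 12.0 CPM in the ureteric epithelium (-0.80). *Ptprm*, a receptor phosphatase on the other side, was at 14.6, 12.6 and 9.09 CPM in the nephron (-0.21) and at 9.38, 6.85 and 3.16 CPM in the ureteric epithelium (-0.45). The neighbours were looked at after the *Lama1* values were known, and the strain of the flanking sequence is not among the data used here.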
